A study of Mus musculus with 6 samples.

Results

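Autophagy delivers parts of the cytoplasm to the lysosome inside a double membrane, the autophagosome. A kinase complex built around ULK1 starts the process, a lipid kinase complex around Beclin 1 marks the growing membrane, lipid transfer and scramblase proteins feed it, and a pair of ubiquitin-like conjugation systems attach proteins of the ATG8 family (LC3 and GABARAP) to it, on which cargo receptors then dock. In neutrophils autophagy is known for its part in granule formation, degranulation and survival. Transcript levels do not measure autophagic flux.

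The core machinery was followed as a fixed set of 36 genes, picked by symbol from the 53090 rows of each table, and all 36 were found. Of these, 35 had enough counts to be tested. Atg10, which encodes the E2-like enzyme that joins ATG12 to ATG5, was covered by 21 counts in all liver libraries together and 24 in all blood libraries, too few to test. The symbol Atg2a had a second row, and the row with the larger sum was used.

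The 6 libraries came from neutrophils of mice kept for 1 week on DDC (3,5-diethoxycarbonyl-1,4-dihydrocollidine) diet, used in mice as a model of bile duct injury. The groups were 3 libraries of neutrophils from liver and 3 of circulating neutrophils from blood, so both groups carried the same treatment and no untreated mouse enters here. Ly6G, a surface protein of mouse neutrophils, was the handle for magnetic isolation, after a Percoll gradient for liver and after lysis for blood, and tissue and preparation cannot be told apart. The labels used here name no strain, sex or age, and do not say whether equal sample numbers mean the same mouse.

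Each liver library held 13778681 to 17579669 counts and each blood library 13054673 to 14403803. A list of 9 neutrophil markers summed to 7750 to 13500 CPM (counts scaled to library size) in liver and 21000 to 32300 CPM in blood, and 8 of its 9 genes were lower in liver. The 13 Kupffer cell and macrophage markers summed to 553 to 1070 CPM in liver, most in liver 3, and to 328 to 528 CPM in blood, where Clec4f was at 0 in blood 2 and 3. The 7 monocyte markers summed to 815 to 1180 CPM in liver and 160 to 207 CPM in blood. Most of the liver sum was Fn1, at 573, 542 and 856 CPM, against 60.6, 26.2 and 39.2 CPM in blood. In this list 5 genes were higher, Klra2 was lower and Ly6c2 did not pass. The 8 erythroid markers summed to 150 to 2760 CPM in liver and to 34100, 14900 and 377 CPM in blood 1, 2 and 3, and the 10 platelet markers to 13.3 to 23.5 CPM in liver against 337, 104 and 45.3 CPM in blood 1, 2 and 3. Hepatocyte markers summed to 271 to 493 CPM in liver and 108 to 151 CPM in blood, of which Trf alone gave 254, 175 and 255 CPM in liver and 146, 108 and 117 CPM in blood, while Alb had 7.25, 73.2 and 148 CPM in liver and 2.44, 0.0876 and 0.47 CPM in blood. Cholangiocyte markers summed to 46.2 to 72.6 CPM in liver and 11.2 to 14.6 CPM in blood, and most of the liver sum was Spp1, at 55.9, 68.3 and 43 CPM, against 1.8, 2.72 and 1.61 CPM in blood. Krt7 was lower in liver, at 3.12 ± 0.944 CPM, against 10.4 ± 2.17 CPM in blood (SD, n = 3 each), and Krt19, Epcam, Sox9 and Cftr had too few counts to test. Endothelial and dendritic cell markers summed to 30.5 to 56.8 and 38.6 to 93.5 CPM in liver and 16.1 to 20.4 and 9.29 to 18.8 CPM in blood, B and plasma cell markers to 64.4 to 79.7 CPM in liver and 53.4 to 266 CPM in blood, and T and NK cell markers to 6.02 to 14.8 CPM in liver and 7.10 to 12.5 CPM in blood. In erythroid markers blood 3 (377 CPM) and liver 3 (150 CPM) lay far below the rest of their groups, and blood 1 was highest. Blood 2 was highest in B and plasma cell markers. Liver 3 (macrophage) and blood 1 (platelet and part of the macrophage list) also stood apart. In blood 1, 2 and 3 Cd5l had 45.6, 1.05 and 0 CPM and C1qb 23.1, 1.49 and 0 CPM. Csf1r, of the same list, had 340, 351 and 287 CPM there. Ribosomal RNA took 10.9% to 13.7% of counts in liver and 5.15% to 7.31% in blood, and mitochondrial mRNA 0.671% to 1.43% in liver and 0.0743% to 0.158% in blood. In such bulk samples fewer cells of a type and less RNA per cell cannot be told apart, and the part of these markers in the results was not tested. Values without liver 3 and blood 1 do not remove these differences, since monocyte markers stayed at 815 and 879 CPM in liver 2 and 1 against 160 and 196 CPM in blood 3 and 2. Erythroid markers stayed uneven too, at 14900 CPM in blood 2, 377 CPM in blood 3, and 2090 and 2760 CPM in liver 1 and 2.

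In liver neutrophils 11 autophagy genes were lower than in blood neutrophils and 2 were higher, of 35 tested, at an adjusted p under 0.05 by edgeR's quasi-likelihood test with Benjamini-Hochberg adjustment over all 13458 genes. The falls lay in the ULK1 complex, the WIPI proteins, the ATG8 conjugation enzymes, Map1lc3b and the receptors Nbr1 and Calcoco1, and the rises were Gabarapl1 and Optn. The called share of 37.1% compares with 31.6% of all genes tested. By direction 31.4% of the members were lower and 5.71% higher, against 14.2% and 17.4% of all genes. Of the 9568 tested genes within the members' range of mean CPM (2.92 to 576), 35.3% were called, 1648 higher and 1734 lower. The members' median log2 fold change, liver minus blood, was -0.40, and that of all genes 0.04. Summed over the 36 members, the level was 3146, 3325 and 2609 CPM in liver 1, 2 and 3 and 4119, 5019 and 3727 CPM in blood 1, 2 and 3. The groups did not overlap in this sum, in which abundant genes weigh most. Map1lc3b had a mean of 314 CPM in liver against 818 CPM in blood, and Atg3 179 against 517 CPM. Tax1bp1, as abundant, had 587 CPM in liver against 566 CPM in blood. Without both liver 3 and blood 1, 6 of 35 members were called lower and 1 higher, against 1195 and 1631 of 13689 genes tested. Ulk2, Atg3, Map1lc3b, Nbr1 and Calcoco1 were the 5 of 13 called genes that passed under all 16 alternative settings.

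**Figure D1:**
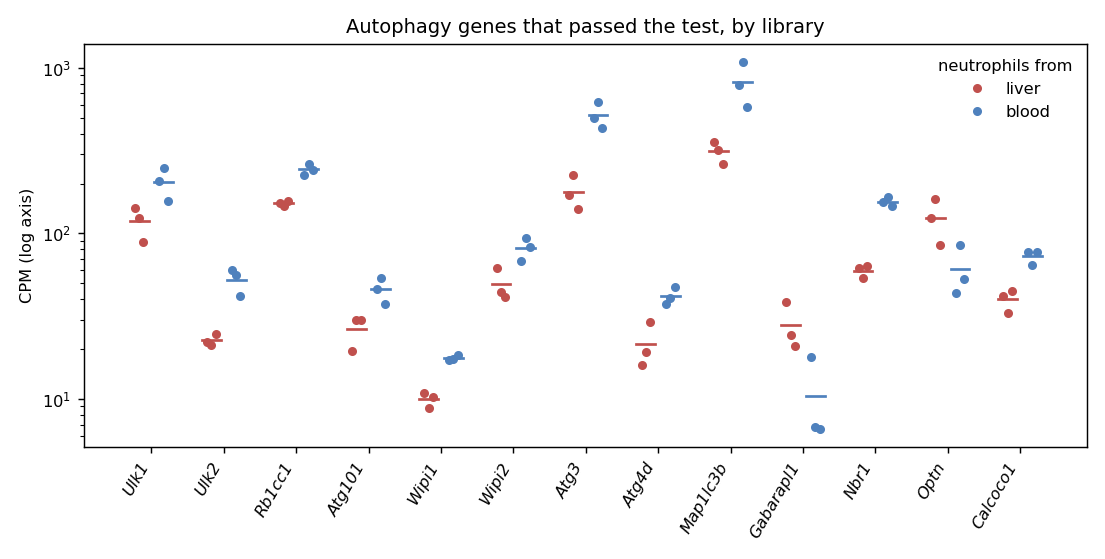
CPM (log axis) of the 13 autophagy genes that passed the test, with 1 point per library, liver neutrophils left of blood neutrophils, and a line at the mean of 3. For each gene the 3 liver points lie wholly on one side of the 3 blood points, below them for 11 genes and above them for Gabarapl1 and Optn, where for Optn the lowest liver value (85.5 CPM) and the highest blood value (85.2 CPM) nearly touch.

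The groups did not overlap for 13 members with liver below blood (37.1%) and for 3 with liver above blood (8.57%). Over all genes tested these shares were 22.7% and 25.8%, or 48.5% in either direction. Besides the called genes, Atg13 and Becn1 lay below and Uvrag above blood in all 3 liver libraries without passing the test. Becn1 and Uvrag share 3104 and 1589 exonic bases with Cntd1 and Gm45187 on the opposite strand.

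The ULK1 complex had the most members called, with 4 of 5 lower and a median log2 fold change of -0.79. Of all genes 14.2% were lower and 17.4% higher, the shares to set beside each role here and below. With 4 to 6 genes tested per role, the order of roles was not stable. Without blood 1 the ULK1 complex had 2 called lower, as had ATG8 conjugation and the cargo receptors. Without blood 2 it had 2, against 3 in ATG8 conjugation. Ulk2 (chr11:61775649-61855073, minus strand, GRCm38, as all gene positions here), a kinase closely related to ULK1, had 22.0, 21.3 and 24.6 CPM in liver 1, 2 and 3 and 59.9, 56.1 and 41.8 CPM in blood 1, 2 and 3. It was 2.32-fold lower in liver, a log2 fold change of -1.21 ± 0.21 (SE; edgeR adjusted p = 0.0030). Rb1cc1, which encodes the scaffold FIP200, had 153, 147 and 156 CPM in liver against 225, 264 and 241 CPM in blood. The liver libraries lay close together and each was well below blood, with a log2 fold change of -0.68 ± 0.17 (edgeR adjusted p = 0.014).

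Ulk1, the kinase that opens the pathway, had 143, 123 and 88.5 CPM in liver against 206, 249 and 156 CPM in blood. Liver 1 and blood 3 came close, and the log2 fold change of -0.79 ± 0.24 (edgeR adjusted p = 0.032) lost its call without liver 2, liver 3, blood 1 or blood 2, with adjusted p of 0.0673 to 0.0907. Atg101, which stabilises ATG13 in the complex, had 19.5, 30.1 and 29.8 CPM in liver against 46.2, 54.0 and 37.7 CPM in blood. It was 1.74-fold lower (edgeR adjusted p = 0.032), and its call was lost without liver 1, blood 1 or blood 2. Atg13, the adaptor between kinase and scaffold, had 22.1, 15.8 and 21.3 CPM in liver against 26.2, 22.4 and 32.6 CPM in blood, and did not pass (log2 fold change -0.46 ± 0.25, edgeR adjusted p = 0.19). Without both liver 3 and blood 1, the median of the 5 genes was -0.78 and only Ulk2 was called.

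None of the 6 genes of the Beclin 1 lipid kinase complex passed the test. Their log2 fold changes ran from -0.66 for Pik3c3, the catalytic subunit, to 1.08 for Atg14, the subunit that directs the complex to autophagosome formation, which had only 1.14 to 5.30 CPM in any library. Becn1, the complex's scaffold, had 128, 146 and 130 CPM in liver against 152, 217 and 164 CPM in blood. Uvrag, a subunit of the complex's endosomal form, had 113, 111 and 128 CPM in liver against 85.5, 89.5 and 92.6 CPM in blood, the reverse order (log2 fold change 0.39 ± 0.17, edgeR adjusted p = 0.098). Pik3c3 and its regulatory partner Pik3r4 had nearly equal log2 fold changes, -0.66 ± 0.28 and -0.65 ± 0.30, and were called lower without liver 3, where both had their highest liver values. Ambra1, a regulator of Beclin 1, had 54.4 to 56.1 CPM in liver and 48.6 to 63.0 CPM in blood.

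Among the genes that supply and read the growing membrane, 2 of 5 were lower. Wipi1 and Wipi2 encode proteins that bind the lipid made by the Beclin 1 complex. Wipi2 had 62.2, 44.2 and 41.2 CPM in liver against 67.8, 93.9 and 83.0 CPM in blood, a 1.66-fold fall (edgeR adjusted p = 0.032) that lost its call without liver 2, liver 3, blood 2 or blood 3. Wipi1 had 10.8, 8.79 and 10.2 CPM in liver against 17.2, 17.4 and 18.4 CPM in blood. Its groups were tight and apart, yet its log2 fold change of -0.83 ± 0.25 (edgeR adjusted p = 0.030) passed with all 6 libraries and missed the threshold when any library was left out, with adjusted p of 0.0559 to 0.0828. Atg2a, a lipid transfer protein gene, had 195, 141 and 120 CPM in liver against 120, 121 and 127 CPM in blood, with liver 1 alone far above blood. Atg9a, the scramblase gene, had 85.9, 55.0 and 50.9 CPM in liver against 54.3, 72.4 and 56.2 CPM in blood, and Atg2b had a log2 fold change of -0.25. None of these 3 passed. Atg9a shares 1832 of its 5762 exonic bases with Gm29253 on the same strand.

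The ATG12 conjugation genes gave no call among 5 tested. Their log2 fold changes lay between -0.44 and -0.07, all on the lower side. Atg7, the E1-like enzyme shared by both conjugation systems, had 87.5, 115 and 76.7 CPM in liver against 107, 147 and 91.8 CPM in blood. Atg16l1, which places the ATG12-ATG5 conjugate on the membrane, had 63.6, 81.5 and 68.3 CPM in liver against 68.1, 79.4 and 77.4 CPM in blood. For both genes the groups overlapped. Atg12, Atg5 and Atg16l2 had log2 fold changes of -0.44, -0.17 and -0.16.

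In the ATG8 conjugation system Atg3 and Atg4d were lower, 2 of 5 genes. Atg3 (chr16:45158785-45188538, plus strand), the E2-like enzyme that joins ATG8 proteins to lipid, had 171, 225 and 141 CPM in liver 1, 2 and 3 and 501, 619 and 431 CPM in blood 1, 2 and 3. The highest liver library lay far below the lowest blood library, and the gene was 2.89-fold lower, the largest fall among the members (log2 fold change -1.53 ± 0.24, edgeR adjusted p = 0.0018). Atg4d, one of the proteases that process ATG8 proteins, had 16.1, 19.3 and 29.1 CPM in liver against 37.6, 40.8 and 47.5 CPM in blood, a 1.95-fold fall (edgeR adjusted p = 0.019) that lost its call without liver 1, liver 2 or blood 3. Atg4d shares 1405 of its 7264 exonic bases with Kri1 on the opposite strand, a gene that was also lower (41.7 ± 10.2 CPM in liver against 85.6 ± 30.2 CPM in blood, SD, n = 3 each), and no source used here says whether counting went by strand. The other 3 proteases gave no call. Atg4b had 23.6, 20.1 and 25.2 CPM in liver against 23.5, 22.0 and 27.7 CPM in blood, and Atg4c had 14.3, 10.8 and 13.1 CPM in liver against 26.7, 9.29 and 21.4 CPM in blood. Atg4c was called lower without blood 2. Atg4a has a near copy, Atg4a-ps, which matched 96.0% of the length of its longest transcript at an identity of at least 95%. Whether counting kept their reads apart was not tested, and Atg4a had a log2 fold change of -0.19.

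**Figure D2:**
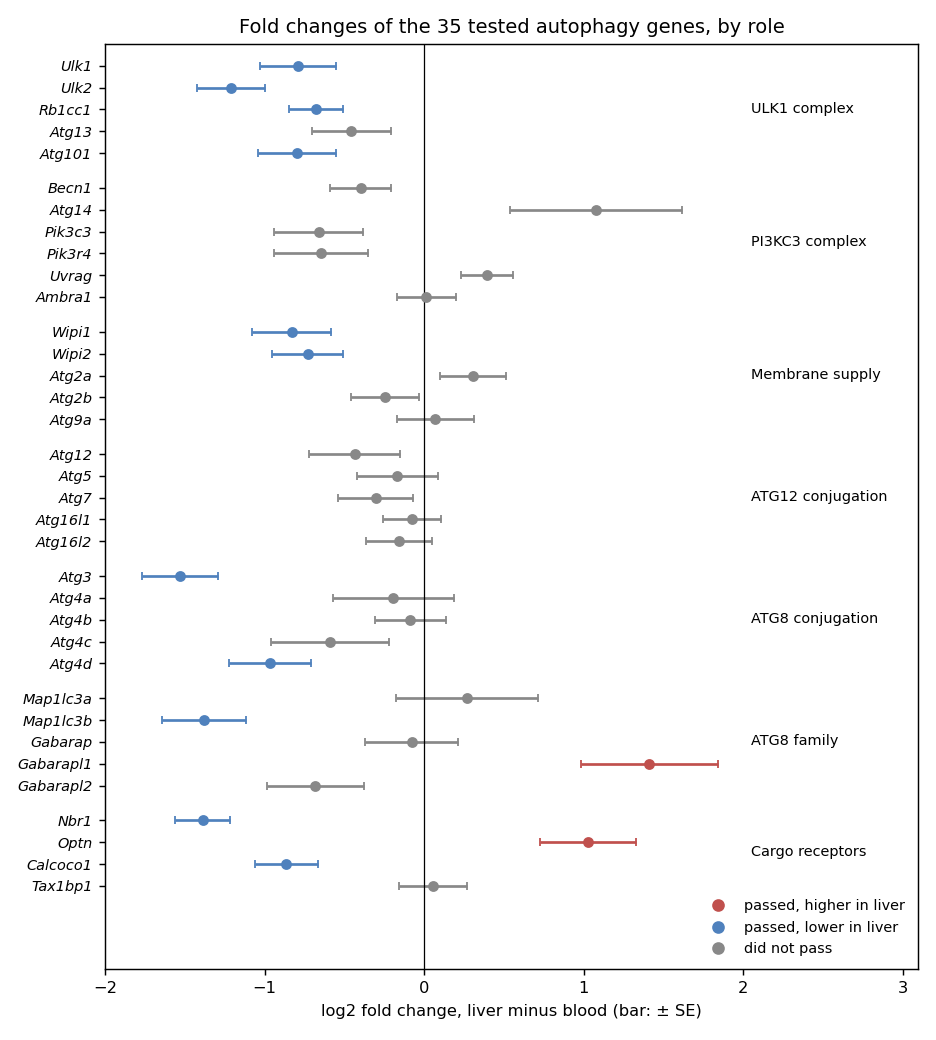
Log2 fold change, liver minus blood, of the 35 tested autophagy genes in order of role, with bars of ± 1 SE and colour for the test result. The points of the ULK1 complex all lie left of 0, between -1.21 and -0.46, those of ATG12 conjugation lie close to 0, and the ATG8 family spans from -1.38 for Map1lc3b to 1.41 for Gabarapl1.

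The ATG8 family split. Map1lc3b (chr8:121590361-121598760, plus strand), encoding LC3B, the protein most used to mark autophagosomes, had 358, 321 and 262 CPM in liver 1, 2 and 3 and 791, 1080 and 578 CPM in blood 1, 2 and 3. It was 2.61-fold lower in liver (log2 fold change -1.38 ± 0.26, edgeR adjusted p = 0.0044). Gabarapl1 (chr6:129533160-129542346, plus strand), a GABARAP paralogue also called GEC1, had 38.4, 24.3 and 21.0 CPM in liver against 18, 6.75 and 6.58 CPM in blood. It was 2.66-fold higher in liver (log2 fold change 1.41 ± 0.43, edgeR adjusted p = 0.034), and blood 1 lay well above the other blood libraries. Its call was lost without liver 1, liver 2, blood 2 or blood 3 (log2 fold change 1.10 to 1.49), and without blood 1 the log2 fold change was 2.02. Gabarapl1 shares 570 of 2013 exonic bases with 1700101I11Rik on the opposite strand, which was higher too, at 2.74 ± 1.88 CPM in liver against 0.238 ± 0.356 CPM in blood (SD, n = 3 each).

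Gabarap had 329, 473 and 228 CPM in liver against 355, 457 and 276 CPM in blood, with the groups wholly interleaved. Gabarapl2, encoding GATE-16, had 36.5, 45.5 and 27.3 CPM in liver against 71.4, 69.5 and 34.6 CPM in blood, and did not pass (edgeR adjusted p = 0.12). Its values followed the erythroid markers within each group, with the lowest value of both in liver 3 and in blood 3. Ulk1, Atg3, Map1lc3b and Gabarap, among other members, were also lowest of their group in these libraries. A link to the markers was not tested. Gabarapl2 was called lower without blood 3. Map1lc3a, encoding LC3A, was low throughout, at 4.05 to 9.53 CPM in liver and 3.23 to 7.09 CPM in blood.

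Per kilobase of exon, Gabarap was the most abundant ATG8 transcript in both groups, with 186 ± 66.7 CPM per kb in liver and 197 ± 49.2 CPM per kb in blood (SD, n = 3 each). Map1lc3b followed with 41.7 ± 6.45 CPM per kb in liver and 109 ± 33.8 CPM per kb in blood. Gabarapl2 and Gabarapl1 had 15.7 ± 3.91 and 13.9 ± 4.58 CPM per kb in liver, within each other's spread, and 25.2 ± 8.91 and 5.19 ± 3.26 CPM per kb in blood. Map1lc3a had 5.24 ± 2.48 CPM per kb in liver and 4.36 ± 1.64 CPM per kb in blood, where it and Gabarapl1 lay within each other's spread. The share of Map1lc3b in the family's summed level per kb was 17.7%, 12.8% and 18.9% in liver 1, 2 and 3 and 30.9%, 33.5% and 30.9% in blood 1, 2 and 3. That of Gabarapl1 was 7.09%, 3.60% and 5.67% in liver and 2.64%, 0.777% and 1.31% in blood. Since a share falls when other members rise, these values show unequal change within the family and not the change of any gene alone.

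**Figure D3:**
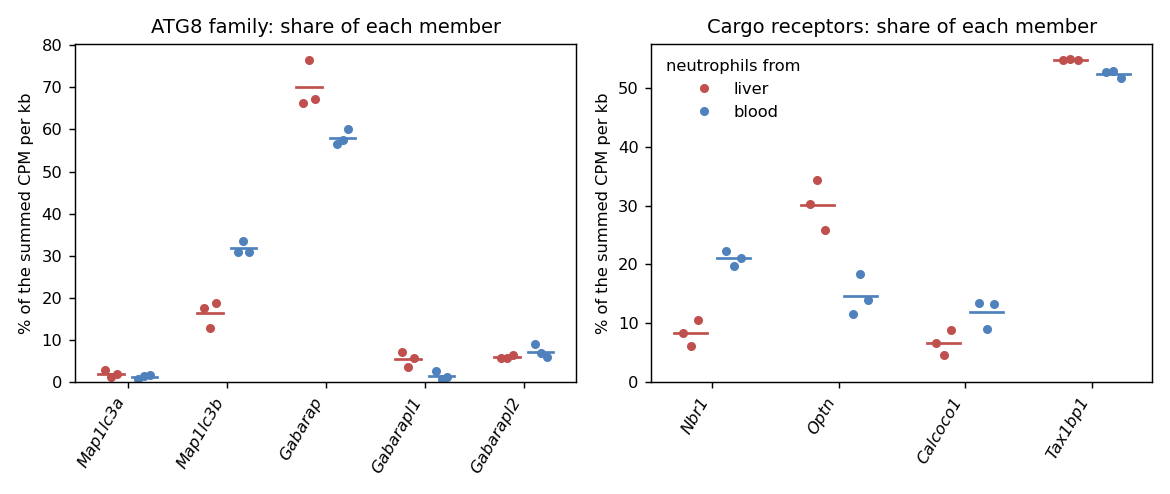
Share of each member in the summed CPM per kb of the ATG8 family (left panel) and of the 4 cargo receptors (right panel), with 1 point per library, liver neutrophils left of blood neutrophils, and a line at the mean of 3. Map1lc3b takes 12.8% to 18.9% in liver and 30.9% to 33.5% in blood, and Optn takes 25.9% to 34.3% in liver and 11.6% to 18.4% in blood, while Tax1bp1 takes 54.7% to 54.9% in liver and 51.6% to 52.8% in blood.

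The cargo receptors moved in both directions, with 2 lower and 1 higher of 4. Nbr1 (chr11:101552149-101581951, plus strand), a receptor for ubiquitinated cargo and peroxisomes, had 61.7, 53.5 and 63.1 CPM in liver 1, 2 and 3 and 154, 166 and 147 CPM in blood 1, 2 and 3. The spread within each group was small beside the gap, and the gene was 2.62-fold lower (log2 fold change -1.39 ± 0.17, edgeR adjusted p = 0.00072), the smallest adjusted p of any member. Calcoco1 (chr15:102706777-102722178, minus strand), a receptor known for autophagy of the endoplasmic reticulum and Golgi, had 41.8, 33.2 and 44.8 CPM in liver against 76.8, 64.1 and 77.1 CPM in blood, a 1.82-fold fall (edgeR adjusted p = 0.0097). Optn (chr2:5020642-5064051, minus strand), encoding optineurin, which links ubiquitinated bacteria and mitochondria to LC3 and takes part in NF-kB and interferon signalling, had 123, 162 and 85.5 CPM in liver against 43.7, 85.2 and 52.9 CPM in blood. It was 2.04-fold higher (log2 fold change 1.03 ± 0.30, edgeR adjusted p = 0.029), and its call was lost without liver 1, liver 2, blood 1 or blood 3, with adjusted p of 0.0751 to 0.11, and also without both liver 3 and blood 1 (0.0512). Tax1bp1, a ubiquitin-binding receptor, had 590, 691 and 480.0 CPM in liver against 527, 649 and 521 CPM in blood, and per kb it was the most abundant of these 4 receptors in both groups, with 58.8 ± 10.5 CPM per kb in liver and 56.6 ± 7.26 CPM per kb in blood. Optn came second in liver, with 32.9 ± 10.2 CPM per kb, against 16.1 ± 5.80 CPM per kb in blood, where Nbr1 came second with 22.6 ± 1.45 CPM per kb, against 8.65 ± 0.751 CPM per kb in liver.

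Promoter sequences from RefSeq (GRCm38.p6), 250 bases before to 50 after a transcript start, were matched by symbol for 30 of the 36 members. They were searched on both strands for the E-box CACGTG, for its extended form TCACGTGA, the core of the element through which TFEB and related factors act on lysosomal genes and which contains the E-box, for the FoxO motif GTAAACA and for the AP-1 motif TGANTCA. Of the members' 34 windows, 4 held CACGTG (11.8%, in Atg3, Atg5, Atg7 and Atg14), 1 held TCACGTGA (2.9%, in Atg3) and 0 held GTAAACA or TGANTCA. Of all 32851 windows, 7.2% held CACGTG, 1.0% TCACGTGA, 3.6% GTAAACA and 7.8% TGANTCA. A lysosomal gene list, described further on, had 32 windows, which covered 27 of its genes. Of these windows, 12 held CACGTG (37.5%), 8 TCACGTGA (25%), 3 TGANTCA (9.4%) and 0 GTAAACA. The first window below is that of Atg3, the member with the largest fall and the only member with TCACGTGA. Those of Map1lc3b and Gabarapl1 follow, the ATG8 genes called in opposite directions. The last are those of Ctsd and Mcoln1, lysosomal genes that hold TCACGTGA and were higher. Capitals mark matches to CACGTG or TCACGTGA. A match describes letters and is not a binding site.
Atg3, chr16:45158579-45158878, plus strand: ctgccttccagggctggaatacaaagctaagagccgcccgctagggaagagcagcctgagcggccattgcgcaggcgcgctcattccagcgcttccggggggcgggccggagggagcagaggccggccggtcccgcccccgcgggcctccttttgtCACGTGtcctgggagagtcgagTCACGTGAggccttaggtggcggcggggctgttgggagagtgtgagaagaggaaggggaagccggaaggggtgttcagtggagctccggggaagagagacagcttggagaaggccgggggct
Map1lc3b, chr8:121590188-121590487, plus strand: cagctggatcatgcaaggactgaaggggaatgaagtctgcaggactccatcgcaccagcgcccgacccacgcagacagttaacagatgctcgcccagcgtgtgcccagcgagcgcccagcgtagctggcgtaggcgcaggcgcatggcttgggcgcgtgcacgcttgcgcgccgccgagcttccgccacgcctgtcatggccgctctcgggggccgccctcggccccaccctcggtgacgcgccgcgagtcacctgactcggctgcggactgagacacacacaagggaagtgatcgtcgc
Gabarapl1, chr6:129532942-129533241, plus strand: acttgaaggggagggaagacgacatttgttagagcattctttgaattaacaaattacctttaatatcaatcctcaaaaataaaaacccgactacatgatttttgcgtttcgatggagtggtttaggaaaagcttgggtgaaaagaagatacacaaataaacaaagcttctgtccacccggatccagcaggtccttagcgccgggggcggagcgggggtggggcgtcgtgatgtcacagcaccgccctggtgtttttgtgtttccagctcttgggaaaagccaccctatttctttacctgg
Ctsd, chr7:142387778-142388077, minus strand: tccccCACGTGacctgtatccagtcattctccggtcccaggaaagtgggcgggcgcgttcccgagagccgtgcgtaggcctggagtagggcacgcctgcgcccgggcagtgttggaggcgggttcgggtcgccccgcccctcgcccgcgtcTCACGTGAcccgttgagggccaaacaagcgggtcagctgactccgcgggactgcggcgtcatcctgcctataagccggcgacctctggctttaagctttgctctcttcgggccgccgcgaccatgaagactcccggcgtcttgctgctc
Mcoln1, chr8:3500269-3500568, plus strand: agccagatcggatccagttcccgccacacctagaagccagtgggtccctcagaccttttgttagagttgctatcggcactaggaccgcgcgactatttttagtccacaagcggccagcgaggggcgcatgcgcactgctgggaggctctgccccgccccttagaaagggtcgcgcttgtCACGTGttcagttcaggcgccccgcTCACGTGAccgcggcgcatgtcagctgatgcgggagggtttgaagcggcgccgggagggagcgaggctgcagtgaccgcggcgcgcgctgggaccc

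The rest of the pathway was described with 6 further lists, of which 121 genes were tested. Of these, 36 were higher and 17 lower in liver, a called share of 43.8% beside 31.6% of all genes, of which 17.4% were higher and 14.2% lower. The lists differed in direction, and the list with most rises was that of the lysosome, the compartment that receives autophagosomes.

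Lysosomal genes were higher in 20 of 36 and lower in 0, a called share of 55.6%, with a median log2 fold change of 0.81 beside 0.04 for all genes. The most abundant called genes were Ctsd, Psap and Ctsb. Psap, the precursor of the saposins, had 1589 ± 90.3 CPM in liver against 697 ± 46.0 CPM in blood (SD, n = 3 each; edgeR adjusted p = 0.0026). The protease gene Ctsd had 1566 ± 316 CPM in liver against 911 ± 186 CPM in blood (edgeR adjusted p = 0.037, with 0.0934 to 0.155 without liver 1, liver 2, blood 1 or blood 3). Ctsb, another protease gene, had 869 ± 335 CPM in liver against 210 ± 145 CPM in blood (edgeR adjusted p = 0.025, with 0.0520 to 0.0758 without any 1 liver library or without blood 1). Macrophages and monocytes, whose summed markers were also higher in liver, express these genes strongly, and their part in this result was not tested. Without both liver 3 and blood 1, 13 of the 36 were called higher and 0 lower, with a median of 0.76. Of the 8 lysosomal genes with TCACGTGA in a window, 5 were higher and 3 did not pass. In the whole list 20 of 36 were higher, but only 27 of its genes had a window, so these shares cover different genes. Atg3, the only member with TCACGTGA, was lower. Psap, also higher in liver, had no CACGTG in its windows but held a match to TGANTCA.

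**Figure D4:**
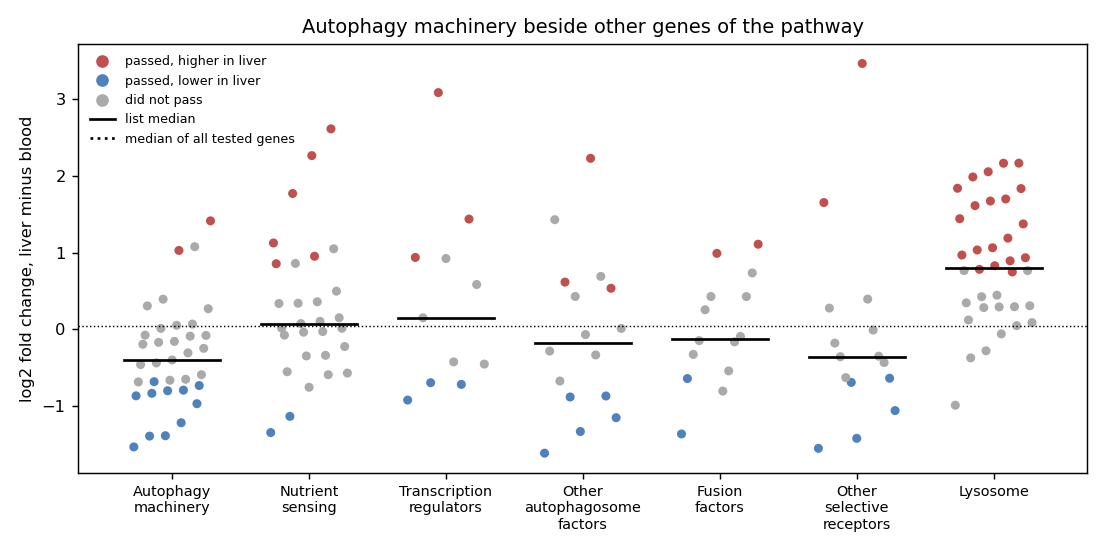
Log2 fold change, liver minus blood, of every tested gene of the autophagy machinery and of 6 related lists, with a bar at each list's median, a dotted line at the median of all tested genes (0.04) and colour for the test result. The machinery has its median at -0.40 and the lysosome list at 0.81, and the lysosome list is the only one shown with no gene called lower.

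Among genes of nutrient sensing by mTORC1 and AMPK, 6 were higher and 2 lower of 29 tested (27.6% called, below the 31.6% of all genes), with a median of 0.08. The AMPK genes Prkaa1, the catalytic subunit alpha 1, and Prkab1, a scaffold subunit, were the ones lower, at 32.2 ± 4.88 and 17.4 ± 2.51 CPM in liver against 70.6 ± 21.4 and 44.2 ± 9.50 CPM in blood (edgeR adjusted p = 0.0084 and 0.0032). Folliculin and its FNIP partners control Rag GTPases at the lysosome. Flcn had 124 ± 10.3 CPM in liver against 56.6 ± 4.43 CPM in blood (edgeR adjusted p = 0.0018), and its partner gene Fnip2 268 ± 124 CPM in liver against 78.7 ± 20.4 CPM in blood (edgeR adjusted p = 0.0044), with liver 3 highest at 410 CPM. The other partner gene, Fnip1, did not pass (log2 fold change 0.50 ± 0.20, edgeR adjusted p = 0.083). Rragc, a Rag GTPase gene, was 1.81-fold higher (edgeR adjusted p = 0.010, and 0.0665 without both liver 3 and blood 1).

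Of 11 transcription regulators of autophagy and lysosome genes, 3 were higher and 3 lower, a called share of 54.5% beside 31.6% of all genes. Foxo3, a forkhead activator of autophagy genes, had 269 ± 48.6 CPM in liver against 508 ± 81.1 CPM in blood (edgeR adjusted p = 0.011). Tfeb, the regulator best known for lysosomal genes, had 60.8 ± 5.58 CPM in liver against 99.9 ± 18.6 CPM in blood (edgeR adjusted p = 0.021, with 0.0729 and 0.0601 without liver 1 and without blood 2), and Foxo4 was 1.62-fold lower, a call lost without any library except blood 2. The relatives Mitf and Tfec were higher. Mitf had 39.4 ± 2.64 CPM in liver against 14.6 ± 7.74 CPM in blood (edgeR adjusted p = 0.013, and 0.0547 without blood 1), and Tfec 2.63 ± 1.33 CPM in liver against 0.305 ± 0.154 CPM in blood (edgeR adjusted p = 0.012), with only 12 counts over the blood libraries. Atf4, the stress regulator, was 1.91-fold higher (edgeR adjusted p = 0.015, with 0.0611 and 0.0607 without liver 1 and without blood 3). Without both liver 3 and blood 1 only Atf4 of this list was called.

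Other autophagosome factors were higher in 3 and lower in 5 of 16, a called share of 50% beside 31.6% of all genes. Tecpr1, which acts in fusion with the lysosome and in lipidation of damaged lysosomes, had 119 ± 16.4 CPM in liver against 25.3 ± 6.72 CPM in blood, 4.68-fold higher (edgeR adjusted p = 0.00035). Vmp1, a scramblase of the endoplasmic reticulum, and Tbk1, the kinase that phosphorylates optineurin, were 1.53-fold and 1.45-fold higher (edgeR adjusted p = 0.032 and 0.047). Of the exclusions of 1 library, the Vmp1 call held without liver 3 only, and the Tbk1 call was lost without any 1 library. Trp53inp1, which binds ATG8 proteins, Sh3glb1, a Beclin 1 partner, and Zfyve1, a marker of the membrane site where autophagosomes form, were 3.05-fold, 1.84-fold and 2.22-fold lower (edgeR adjusted p = 0.00082, 0.0075 and 0.0052), and the Sh3glb1 call was lost without both liver 3 and blood 1 (0.051).

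Of 14 fusion factors, 2 were higher and 2 lower, a called share of 28.6%, near the 31.6% of all genes. Rab7, the GTPase of late endosomes, had 696 ± 150 CPM in liver against 323 ± 37.0 CPM in blood (edgeR adjusted p = 0.0056), and Vps18, a subunit of its tethering complex, was 1.99-fold higher (edgeR adjusted p = 0.019, lost without liver 2, blood 1 or blood 3). Stx17, the SNARE of mature autophagosomes, had 39.0 ± 3.96 CPM in liver against 100 ± 21.1 CPM in blood (edgeR adjusted p = 0.0018), and the adaptor gene Plekhm1 was 1.56-fold lower (edgeR adjusted p = 0.022, lost without liver 1 or blood 1).

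Selective autophagy receptors outside the core set were higher in 2 and lower in 5 of 15 tested. The called share was 46.7%, beside 31.6% of all genes. Sqstm1, encoding p62, which works with NBR1 on ubiquitinated cargo, had 678, 575 and 540 CPM in liver against 185, 201 and 184 CPM in blood. It was 3.14-fold higher (edgeR adjusted p = 0.00054), whereas Nbr1, described above, was 2.62-fold lower. Tex264, a receptor for the endoplasmic reticulum, had 3.63 ± 1.03 CPM in liver against 0.321 ± 0.165 CPM in blood (edgeR adjusted p = 0.0035), with 13 counts over the blood libraries, so its size is uncertain. Ccpg1, another such receptor, had 745 ± 208 CPM in liver against 2178 ± 457 CPM in blood (edgeR adjusted p = 0.0036). The mitophagy receptor genes Bnip3l and Fkbp8 had 138 ± 21.2 and 88.9 ± 11.7 CPM in liver against 286 ± 81.4 and 138 ± 15.1 CPM in blood. The Bnip3l call (edgeR adjusted p = 0.011) was lost without both liver 3 and blood 1 (0.0899). Bnip3l is also known for clearing mitochondria from maturing red cells. Its values of 353, 311 and 195 CPM in blood 1, 2 and 3 took the order of the erythroid markers. So did its 128, 162 and 123 CPM in liver 1, 2 and 3. The erythroid sum spread far more, from 34100 to 377 CPM in blood. Several members named above were also lowest of their group in liver 3 and blood 3. A link of Bnip3l to these markers was not tested. The Fkbp8 call (edgeR adjusted p = 0.027) was lost without liver 1, liver 3, blood 1 or blood 2.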

How the data were processed

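The authors deposited 1 table per library of expected counts per gene. The submitters' processing notes name STAR, RSEM, FastQC 0.11.5, limma and the build GRCm38, without the role of each. The unit is expected counts per the file headers. For versions of STAR and RSEM, filters and the strand setting: not given in the sources used here. Per the labels' protocols, a stranded kit for small amounts of total RNA was used and both fragment ends were read.

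Expected counts were rounded to whole numbers. After filterByExpr (at least 10 counts, total at least 15) and TMM scaling, liver was tested against blood in R 4.3.3 with the robust quasi-likelihood F test of edgeR 4.0.16 at 0.05, with Benjamini-Hochberg adjustment over 13458 genes. CPM are on TMM-scaled library sizes, the SE comes from the F statistic, and CPM per kb uses the union of GENCODE M21 exons (GRCm38), which can exceed the transcript a cell makes. At these depths 3 counts are 0.181 to 0.263 CPM, a floor that covers counting error only. No 2 libraries of a group agreed within sampling noise (chi-square per degree of freedom 52.1 to 79.0 over genes with at least 10 counts in the pair). Nothing beyond the sample numbers says that the libraries are separate mice, so the p-values speak for the spread among these samples only, which may be technical. The test was tried on simulated counts, but no outcome is given here, so that trial does not vouch for these calls.

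Every member called is given with its values by library, a fold or log2 fold change and its adjusted p, and for some also the SE. Also described are the 2 most abundant uncalled members of each role and up to 3 called genes per direction of each other list. Sqstm1 values by library, Mcoln1, Kri1 and 1700101I11Rik were added after their values were seen. Longest member transcripts were aligned to GENCODE transcripts with BLAST (identity of at least 95%, length of at least 100). The members and lists were chosen with earlier results of these data known. Alternatives used other scaling factors, filters and tests (DESeq2 1.42.0, limma-voom 3.58.1), left out mitochondrial and ribosomal RNA or markers of other cells, added a replicate block, or left out libraries.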

Additional observations from a re-analysis of the deposited data

How the results depend on the processing

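Of the 13 autophagy genes called, 5 (Ulk2, Atg3, Map1lc3b, Nbr1 and Calcoco1) were called under all 16 alternatives, and 0 changed sign. Leaving out 1 library gave 0 to 2 members called higher and 7 to 10 lower, 27 to 33 genes of the other lists higher and 12 to 20 lower, and 1732 to 1993 of all genes higher and 1323 to 1626 lower. Without both liver 3 and blood 1 these were 1 and 6 members, 23 and 9 genes of the other lists, and 1631 and 1195 of all genes, with fewer samples in the fit. Deviations of libraries with equal numbers correlated at 0.054, 0.156 and 0.023, so the numbers were not taken as pairs. Liver 1 and liver 2 correlated best with their own number in blood, and liver 3 with blood 1 (0.12). With a replicate block 2 members were higher and 14 lower (Pik3c3, Pik3r4 and Gabarapl2 were added), 43 and 24 genes of the other lists, and 2322 and 2312 of all genes.

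The sign changed for 9 members that did not pass, with reported log2 fold changes of -0.19 to 0.27, and the cause was not tested. Ambra1 (0.01 as reported) was -0.01 with DESeq2 and without a filter on low counts, -0.09 without both libraries and -0.11 to 0.08 without 1 library. Upper quartile scaling gave 0.01 for Atg16l1 and Gabarap and 0.00 for Atg4b, and it moved the median of all genes by 0.088. Gabarap was 0.10 without both libraries. Without 1 library the ranges were -0.39 to 0.14 for Gabarap, -0.21 to 0.21 for Atg9a, -0.34 to 0.03 for Atg5, -0.58 to 0.01 for Atg4a, -0.19 to 0.54 for Map1lc3a and -0.09 to 0.18 for Tax1bp1. Depth limits the members with the fewest counts, Atg10 and Atg14.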
